A study of Mus musculus with 12 samples.

Results

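The interaction of regorafenib and anti-PD1 was measured over all genes of tumours grown from Sq-1979 cells, as the regorafenib effect in the presence of anti-PD1 minus the regorafenib effect in its absence. All 12 of the series' 12 samples enter it, 3 in each of 4 groups. The combination group received regorafenib and anti-PD1, the anti-PD1 and regorafenib groups received 1 agent each, and the vehicle group received neither. All groups were male C3H/HeN mice, 6 weeks old at injection, carrying the head and neck squamous carcinoma line Sq-1979 under the skin in Matrigel. Dosing began on day 20 and ran to the end of the experiment, with regorafenib at 5 mg/kg per day. The labels give daily gavage by mouth for every arm and give no separate dose or route for the antibody. Nothing in them tells if a group's 3 samples are from 3 mice, so p-values measure the spread between these samples, which may be technical. The tumours come from 1 transplanted cell line, and the libraries hold RNA of tumour and host cells together.

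Regorafenib is a small molecule that inhibits several kinases, among them the VEGF receptors and TIE2 of blood vessels, PDGF receptors of stromal cells, CSF1R of macrophages, and the receptor kinases KIT and RET. PD1, encoded by Pdcd1, is an inhibitory receptor on activated T cells. Its ligand PD-L1, encoded by Cd274, is carried by tumour and myeloid cells and is induced by interferon gamma, and an antibody to PD1 releases T cells from that brake. The labels name the 4 treatments, so the question the contrast puts to the data is where the response to both agents is more or less than the sum of the responses to each.

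On the log2 scale an interaction of 0 means that the fold changes of the single agents multiply. The combination level that this predicts, called the expected level here, is the anti-PD1 mean times the regorafenib mean divided by the vehicle mean. A positive interaction puts the combination above that level and a negative one below it. A negative value therefore does not require the combination to lie below either single agent. Genes described at length are given with their level in every group. For the other genes only the interaction is given, which does not tell if a group lay above or below vehicle. Levels are CPM, counts scaled to the library total, after TMM scaling, which corrects library totals for differences in composition.

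The 12 libraries, of polyadenylated RNA with strand kept, held 22591835 to 28209036 counts, and 16974 of the 55487 genes listed passed the filter on low counts. Squamous markers were high in every library: Krt5, a keratin of basal squamous cells, ran from 5239 to 7890 CPM, and Trp63, a transcription factor of the same cells, from 333.9 to 540.7 CPM. The leukocyte marker Ptprc (CD45) ran from 49.8 to 177.2 CPM and so varied by library. Y-linked transcripts (Ddx3y, Eif2s3y, Kdm5d and Uty) summed to 18.3 to 34.6 CPM in combination, 21.3 to 42.3 in anti-PD1, 18.1 to 41.7 in regorafenib and 25.6 to 33.6 in vehicle libraries. No pair of samples of a group was near sampling noise, with a chi-square per gene of at least 11.9.

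No gene had an interaction past an adjusted p of 0.05. The edgeR quasi-likelihood test called 0 of 16974 genes, or 0%, and the smallest adjusted p was 1. DESeq2 and limma voom with sample quality weights also called 0. At an unadjusted p under 0.05 edgeR counted 449 genes, or 2.65% of those tested, counted over the whole table. Of these, 259 were positive (1.53% of all genes tested) and 190 negative (1.12%). If no gene had an interaction, a fraction of about 0.05 of the genes would be due at that level. The 2.65% found was below that fraction, so the count gives no sign of an excess. At that unadjusted level DESeq2 counted 484, of which 231 were positive, and limma voom 594, of which 394 were positive. Every gene described below therefore missed the threshold of the test, and its values are given as measurements.

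Most genes had small interactions, and for many the data bound the size. The median over 16974 genes was -0.005, the quartiles were -0.17 and 0.16, and 49.1% of genes were positive. Among the 14213 genes with a mean of at least 1 CPM the median standard error was 0.22 and the median half-width of the 95% interval 0.48 on the log2 scale. For 10025 of them, or 70.5%, the whole interval lay within a 2-fold departure from additivity in either direction. The regorafenib effects with and without anti-PD1 come from separate libraries, and across those genes they had a Pearson r of 0.59 and the same sign in 73.4%. Genes are not independent replicates, and each effect shares its libraries across all genes. The anti-PD1 effects with and without regorafenib had a Pearson r of 0.24 and the same sign in 62.9%.

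**Figure D1:**
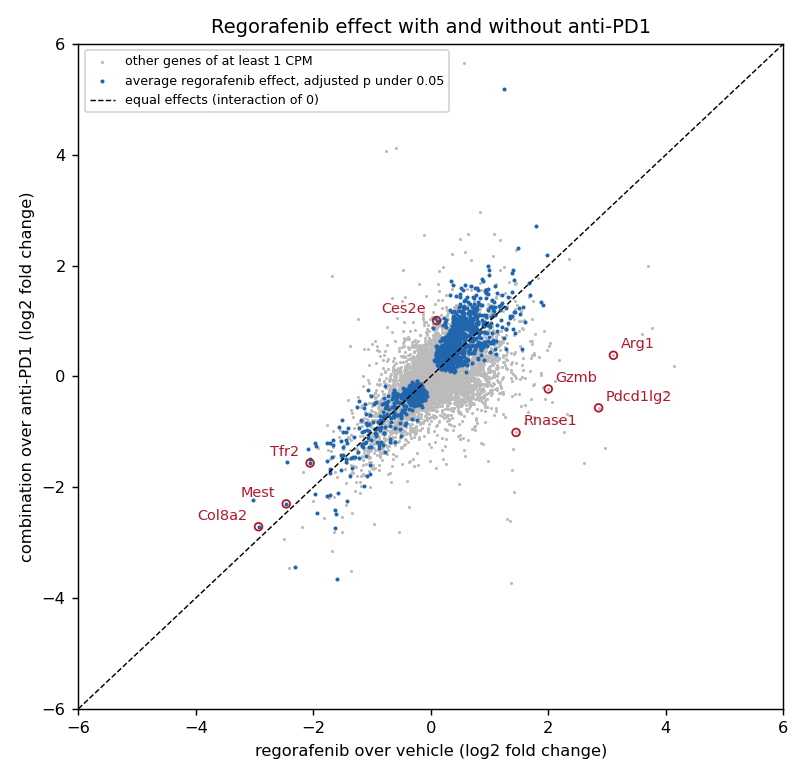
Log2 fold change of combination over anti-PD1 (vertical) against regorafenib over vehicle (horizontal) for genes with a mean of at least 1 CPM, 1 point a gene. The dashed line marks an interaction of 0. Mest, Col8a2 and Tfr2 lie near it, Ces2e lies above it, and Rnase1, Gzmb, Pdcd1lg2 and Arg1 lie below it.

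The positive gene of smallest p among the named genes was Ces2e, and the next was Ces2g, from the same cluster of genes. Both encode mouse carboxylesterases of family 2, enzymes that split ester bonds in lipids and drugs. The genes are on the plus strand of mouse chromosome 8 (GRCm38, GENCODE M21), Ces2e at chr8:104926260-104934672 and Ces2g at chr8:104961718-104969537, with Ces2f between them. The stretches from 250 bases before to 50 after each gene's start, as RefSeq gives them on GRCm38.p6, are shown because these close relatives had like interactions. They span chr8:104926010-104926309 and chr8:104961468-104961767 on the plus strand, and capitals mark the longest run of bases that they share.
Ces2e: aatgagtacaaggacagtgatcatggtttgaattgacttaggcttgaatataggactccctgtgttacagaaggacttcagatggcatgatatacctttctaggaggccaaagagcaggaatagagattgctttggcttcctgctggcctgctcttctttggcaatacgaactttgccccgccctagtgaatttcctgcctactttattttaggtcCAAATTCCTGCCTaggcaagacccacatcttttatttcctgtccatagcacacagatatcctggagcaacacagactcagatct
Ces2g: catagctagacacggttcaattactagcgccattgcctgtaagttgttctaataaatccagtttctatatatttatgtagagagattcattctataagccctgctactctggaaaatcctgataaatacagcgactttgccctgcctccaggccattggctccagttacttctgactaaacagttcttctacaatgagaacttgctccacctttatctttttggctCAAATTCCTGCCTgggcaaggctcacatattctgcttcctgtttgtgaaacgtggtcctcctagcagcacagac
The shared run of 13 bases occurs in 3 of 32851 mouse promoters of that length. The motifs searched, on both strands, were the TATA box TATAAA, the CCAAT box CCAAT, the GC box GGGCGG, the AP-1 site TGANTCA and the E-box CACGTG. The Ces2e stretch holds GGGCGG on its reverse strand, as do 35.7% of promoters on either strand, and the Ces2g stretch holds CCAAT on its reverse strand, as do 37.4%. The letters of the TATA box, found in 13.6% of promoters, of the AP-1 site, in 7.8%, and of the E-box, in 7.2%, are not in either window. These are matches of letters and no sign of binding.

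Ces2e measured 75.3, 82.1 and 80.3 CPM in combination tumours and 35.7, 44.0 and 38.5 CPM in anti-PD1 tumours. It measured 60.5, 43.5 and 64.8 CPM in regorafenib tumours and 55.0, 48.2 and 54.6 CPM in vehicle tumours. Every combination library was above all 9 others, and every anti-PD1 library was below all vehicle libraries. The expected combination level was 42.1 CPM, and the interaction was 0.91 ± 0.19 on the log2 scale (SE), with a 95% interval of 0.48 to 1.34 (unadjusted p 0.000678, adjusted p 1, edgeR). The log2 effect of regorafenib was 1.01 with anti-PD1 and 0.10 without it.

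Ces2g measured 343.4, 329.8 and 276.1 CPM in combination tumours and 160.4, 158.5 and 155.4 CPM in anti-PD1 tumours. It measured 181.2, 220.4 and 227.7 CPM in regorafenib tumours and 164.8, 152.6 and 169.3 CPM in vehicle tumours. The combination libraries were again above all others, while the anti-PD1 and vehicle libraries overlapped. Against an expected 204.4 CPM the interaction was 0.63 ± 0.15 (SE; 95% interval 0.30 to 0.96, unadjusted p 0.00156, adjusted p 1, edgeR).

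The other carboxylesterases were looked up after these values were seen, so their signs are no independent support. Among the further family 2 genes tested, Ces2b had 0.77 (95% interval 0.17 to 1.37), Ces2c 0.78 (-0.53 to 2.08) and Ces2f 0.46 (-0.10 to 1.02), and the intervals of Ces2c and Ces2f include 0. The family 1 genes tested, Ces1d, Ces1e and Ces1g, were also positive, with intervals that include 0. Shared sequence was small, at 3.4% of the 50-base stretches of Ces2e and 4.0% of those of Ces2g, so reads rarely fit several genes.

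**Figure D2:**
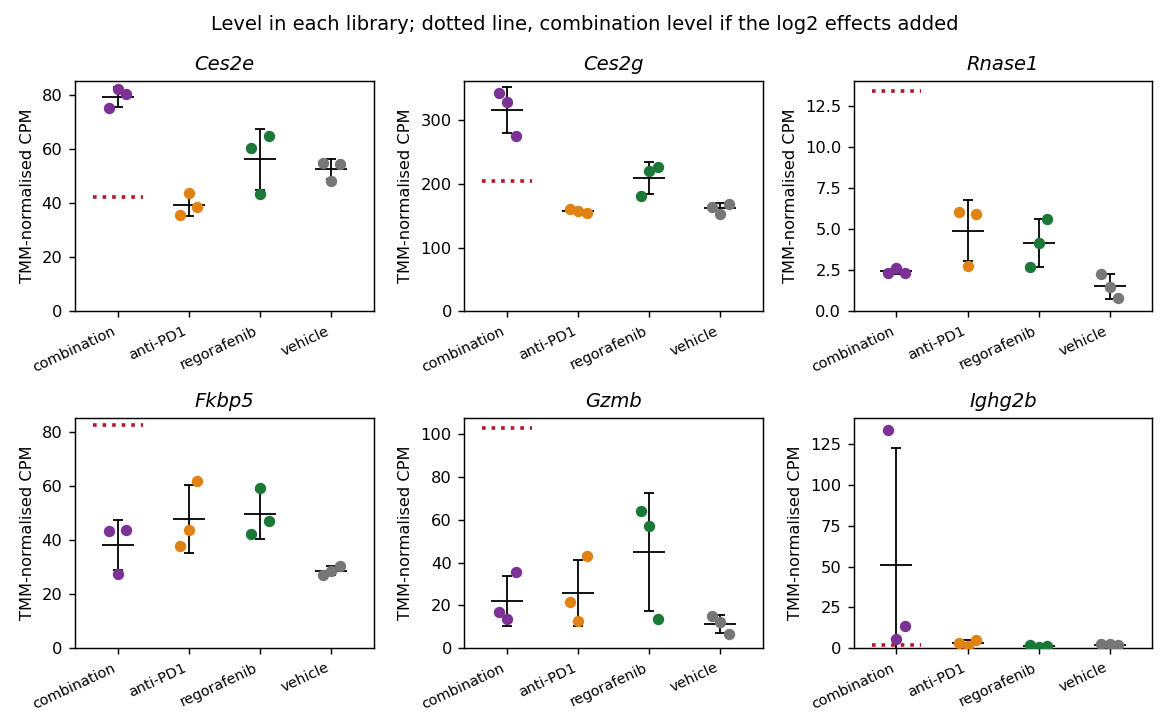
TMM-normalised CPM of 6 genes in each library (points), with the group mean and SD (bars, n = 3), for combination, anti-PD1, regorafenib and vehicle tumours. The dotted line is the combination level if the log2 effects added. Ces2e and Ces2g lie above it in all 3 combination libraries, Rnase1, Fkbp5 and Gzmb lie below it in all 3, and 1 library carries most of the Ighg2b mean.

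The genes of T cells had negative interactions throughout the list. The list holds genes of the T cell receptor complex and its signalling chain, with other genes of T cells. Some members, such as Cd4 and Cd8a, mark subsets and not all T cells. All 20 genes listed were tested, all 20 were negative, and 0 passed the test. Their median was -0.93, against -0.005 over all genes. The median log2 effect of regorafenib on them was -0.08 with anti-PD1 and 0.87 without it. All 20 had a higher group mean in combination, in anti-PD1 and in regorafenib tumours than in vehicle tumours, so the negative sign stands for combination levels short of the sum and not for levels below vehicle. In tumour tissue, the number of T cells and the RNA per T cell cannot be told apart.

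Cd3d, a chain of the T cell receptor complex, measured 4.55, 5.71 and 9.42 CPM in combination tumours and 7.38, 4.64 and 11.96 CPM in anti-PD1 tumours. It measured 10.2, 10.3 and 4.21 CPM in regorafenib tumours and 4.61, 3.02 and 3.08 CPM in vehicle tumours. The combination libraries lay inside the range of the single agents, and 1 regorafenib library lay inside the vehicle range, so the 4 groups overlapped apart from anti-PD1 and vehicle. The interaction was -1.49 ± 0.61 (SE; unadjusted p 0.034, adjusted p 1, edgeR). Zap70, the kinase that binds the receptor chains, had -1.09, and Cd247, the zeta chain, -1.25, where 60.3% of the exonic bases of Cd247 overlap other genes.

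The libraries of each treated group were split on these genes. The mean log2 difference of the T cell list from the vehicle mean was -0.28, 0.53 and 1.19 in combination libraries and 0.51, -0.07 and 1.25 in anti-PD1 libraries. It was 1.15, 1.22 and -0.08 in regorafenib libraries, with vehicle libraries between -0.13 and 0.13. Each treated group thus had a library near or below the vehicle level and at least 1 more than 1 log2 unit above it. Without the third combination library the list's median was -1.46, and without the third anti-PD1 library -0.56. At least 19 of the 20 genes were negative whichever of the 12 libraries was left out. With summed Y-linked CPM as a covariate the median was -0.59.

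Cytotoxic effector genes of CD8 T cells and natural killer cells had the same sign with a larger median. All 20 of 20 were negative, also with any 1 library left out, and 0 passed. The median was -1.27, with -0.80 without the third anti-PD1 library and -0.71 with the Y-linked covariate. Regorafenib's median effect on them was -0.19 with anti-PD1 and 1.06 without it.

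Gzmb, the protease granzyme B of killer cells, measured 16.8, 13.8 and 35.4 CPM in combination tumours and 21.8, 12.5 and 42.9 CPM in anti-PD1 tumours. It measured 64.2, 57.0 and 13.4 CPM in regorafenib tumours and 14.9, 12.1 and 6.67 CPM in vehicle tumours. The highest levels were in 2 of 3 regorafenib libraries, and no combination library reached the expected 103 CPM. The interaction was -2.23 (95% interval -4.16 to -0.29, unadjusted p 0.0282, adjusted p 1, edgeR). Granzyme A, Gzma, had -2.48, the natural killer receptor gene Klrb1c -2.28 and Klrd1, which encodes CD94, -1.12.

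Checkpoint genes followed the same sign. The list holds inhibitory receptors and their ligands, with related genes such as Icos, Entpd1 and Tox that are neither. All 16 checkpoint genes were negative with a median of -0.90, 0 passed, and at least 15 were negative with any library left out. The median was -1.49 without the third combination library and -0.51 without the third anti-PD1 library. Pdcd1 itself measured 5.88, 8.005 and 16.9 CPM in combination tumours and 13.6, 6.26 and 16.7 CPM in anti-PD1 tumours. It measured 14.9, 14.4 and 8.86 CPM in regorafenib tumours and 6.88, 5.90 and 4.71 CPM in vehicle tumours, so every regorafenib library was above every vehicle library while combination and anti-PD1 overlapped. Its interaction was -1.38 (95% interval -2.72 to -0.03). Cd274 had -0.87 (95% interval -2.07 to 0.32), with 137.2 to 178 CPM in combination, 77.5 to 226.2 in anti-PD1, 86.9 to 181 in regorafenib and 45.5 to 90.3 in vehicle libraries. The second PD1 ligand, Pdcd1lg2, had the lowest value of the list at -3.42 (95% interval -6.27 to -0.58). Cd96, an inhibitory receptor of T and natural killer cells, had -1.42, and Tox, a transcription factor of exhausted T cells, -1.58.

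Regulatory T cell genes were more mixed, with 9 of 12 negative and a median of -0.62, which was -1.07 without the third combination library and -0.16 without the third anti-PD1 library. Foxp3, their defining transcription factor, had -0.92 with a 95% interval of -2.62 to 0.78. Tnfrsf9, the costimulatory receptor 4-1BB, had -1.25, Ccr8, a chemokine receptor of tumour regulatory cells, -1.53, with Itgae, the integrin chain CD103, also negative. Lrrc32, which tethers latent TGF-beta and is also made by other cells, had 0.32. Of the 15 genes chosen as immune and vessel readouts, 14 were negative: Cd8a had -0.84, Cd4 -0.95, Ifng -1.04, Cxcl9 -0.94 and Cd40 -0.88. Only Mki67, a marker of cycling cells, was positive, at 0.12, and it was -0.12 without the second regorafenib library. Every 95% interval of those 6 genes includes 0.

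**Figure D3:**
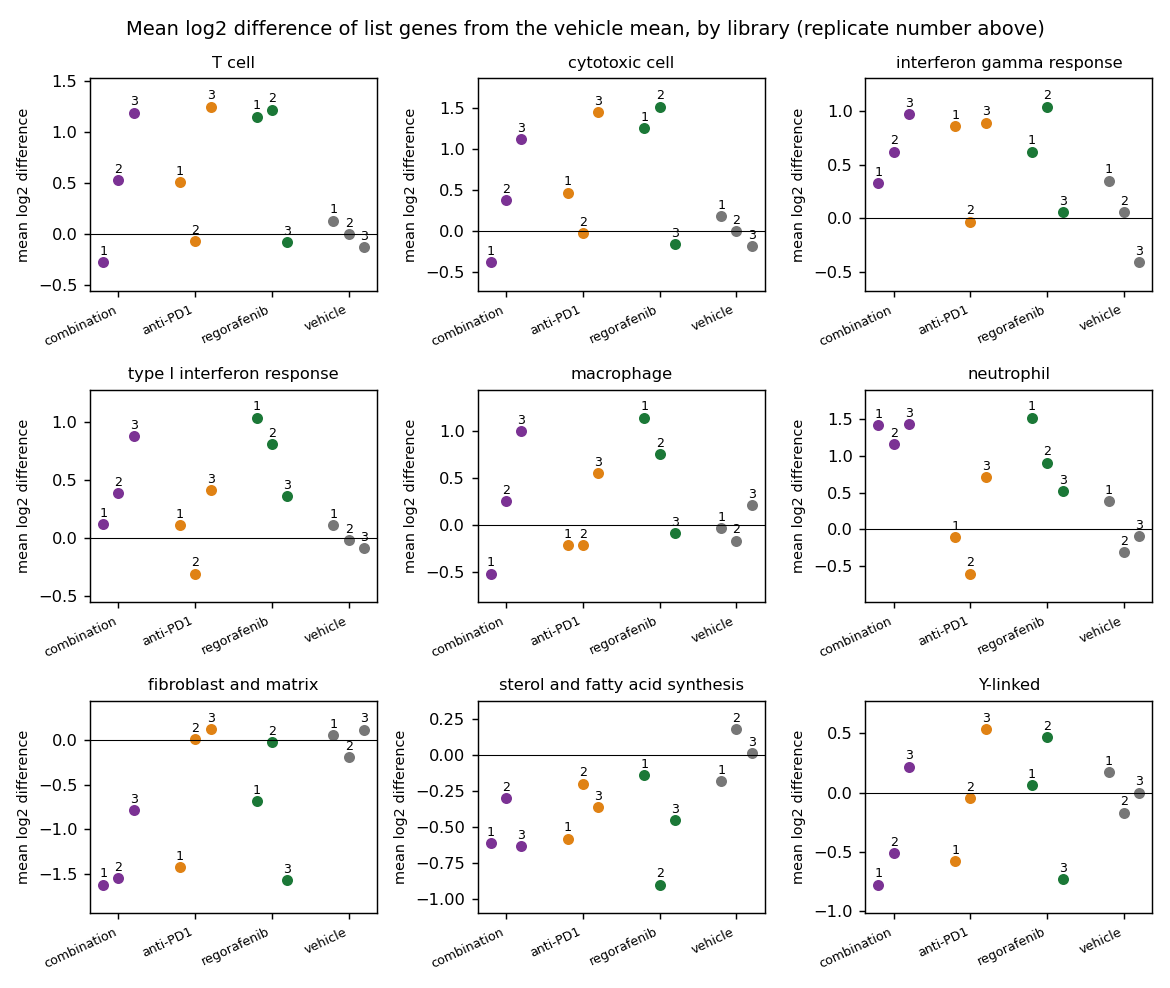
Mean log2 difference of 9 gene lists from the vehicle mean in each library, in combination, anti-PD1, regorafenib and vehicle tumours, with the replicate number above each point. In the T cell and cytotoxic panels combination library 3, anti-PD1 library 3 and regorafenib libraries 1 and 2 are more than 1 log2 unit above the vehicle mean, and in the neutrophil panel all combination and regorafenib libraries are above all vehicle libraries.

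The medians of the myeloid lists differed in sign. Macrophage genes were negative in 16 of 20, with a median of -0.48, and regorafenib's median effect was 0.03 with anti-PD1 and 0.62 without it. The median interaction was -0.95 without the third combination library and -0.13 without the third anti-PD1 library. Mertk, a receptor for the uptake of dead cells, had -1.39, Cd68, a lysosomal protein, -0.85, and the monocyte genes Ccr2 and Ly6c2 -1.25 and -1.24. Without the third anti-PD1 library these were -0.79 for Mertk, -0.31 for Cd68, -0.56 for Ccr2 and -0.39 for Ly6c2. Csf1r, a regorafenib target and the growth receptor of macrophages, had -0.74 with a 95% interval of -2.06 to 0.59. Mrc1, the mannose receptor CD206, had -0.58 but 0.28 without the first regorafenib library, which held 70.6 CPM against 9.74 to 32.8 CPM in the other 11. Arginase 1, Arg1, likewise had -2.73 with all libraries and -1.09 without that library, which held 21.7 CPM.

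Dendritic cell genes were negative in 14 of 15, with a median of -0.85 that was -0.37 with the Y-linked covariate and -0.32 without the third anti-PD1 library. Ccl22, a chemokine of mature dendritic cells, had -1.17, Ccr7, which guides them to lymph nodes, -1.03, Zbtb46, a transcription factor of the classical lineage, -0.85 and Xcr1, a receptor of the cross-presenting subset, -1.63. All 8 mast cell genes were negative, with a median of -0.59 that became 0.17 without the third anti-PD1 library. The receptor chain Fcer1a had -1.24 and the growth receptor Kit, a regorafenib target, -0.62. Fcer1a had -0.51 without the second regorafenib library and Kit -0.02 without the third anti-PD1 library.

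Neutrophil genes did not share this sign. Of 15 tested, 10 were positive with a median of 0.23, and regorafenib's median effect was close with and without anti-PD1, at 1.24 and 1.12. The mean log2 difference of the list from vehicle was 1.42, 1.16 and 1.43 in combination libraries and -0.10, -0.60 and 0.71 in anti-PD1 libraries. It was 1.52, 0.91 and 0.52 in regorafenib libraries and 0.39, -0.31 and -0.09 in vehicle libraries, so combination and anti-PD1 did not overlap, nor did regorafenib and vehicle. The chemokine Cxcl2 had an interaction of 1.66, the protease Mmp9 0.99, the decoy receptor Il1r2 -0.85 and the lectin receptor Clec4d 0.85, each with a 95% interval that includes 0. Without the first combination library Mmp9 had 0.17. Its mean in vehicle tumours was 71.6 CPM, against 0.98 CPM for S100a8 of the same list. Which cells express Mmp9 here was not tested. The list's median was -0.26 without the first vehicle library.

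Antibody genes had the largest positive values among the 38 lists. Of 20 B and plasma cell genes 12 were tested, 10 of these were positive, and the median was 0.63, with 0.30 to 1.29 when 1 library was left out. Ighg2b, an immunoglobulin heavy chain constant region, measured 133.6, 5.50 and 13.5 CPM in combination tumours and 2.97, 1.11 and 4.92 CPM in anti-PD1 tumours. It measured 1.69, 0.66 and 1.37 CPM in regorafenib tumours and 2.48, 2.25 and 1.66 CPM in vehicle tumours. All combination libraries were above all others, and the first stood far above the rest. The interaction was 4.85 (95% interval 1.57 to 8.12, unadjusted p 0.00785, adjusted p 1, edgeR), and 2.41 without the first combination library. Ighg1 had 4.71, which was 0.29 without that library, where it held 183.4 CPM. Ighg3 had 3.94, with 2.21, 7.76 and 3.04 CPM in combination libraries and 0 to 0.25 CPM in the other 9. The 95% intervals of Ighg1 (-0.71 to 10.1) and Ighg3 (-0.82 to 8.70) include 0. Of the 12 genes tested, only Ighg2b had an interval that leaves out 0. Igha, another heavy chain constant region, had -0.61. Xbp1, a transcription factor of plasma cells that epithelial cells express as well, had -0.20.

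**Figure D4:**
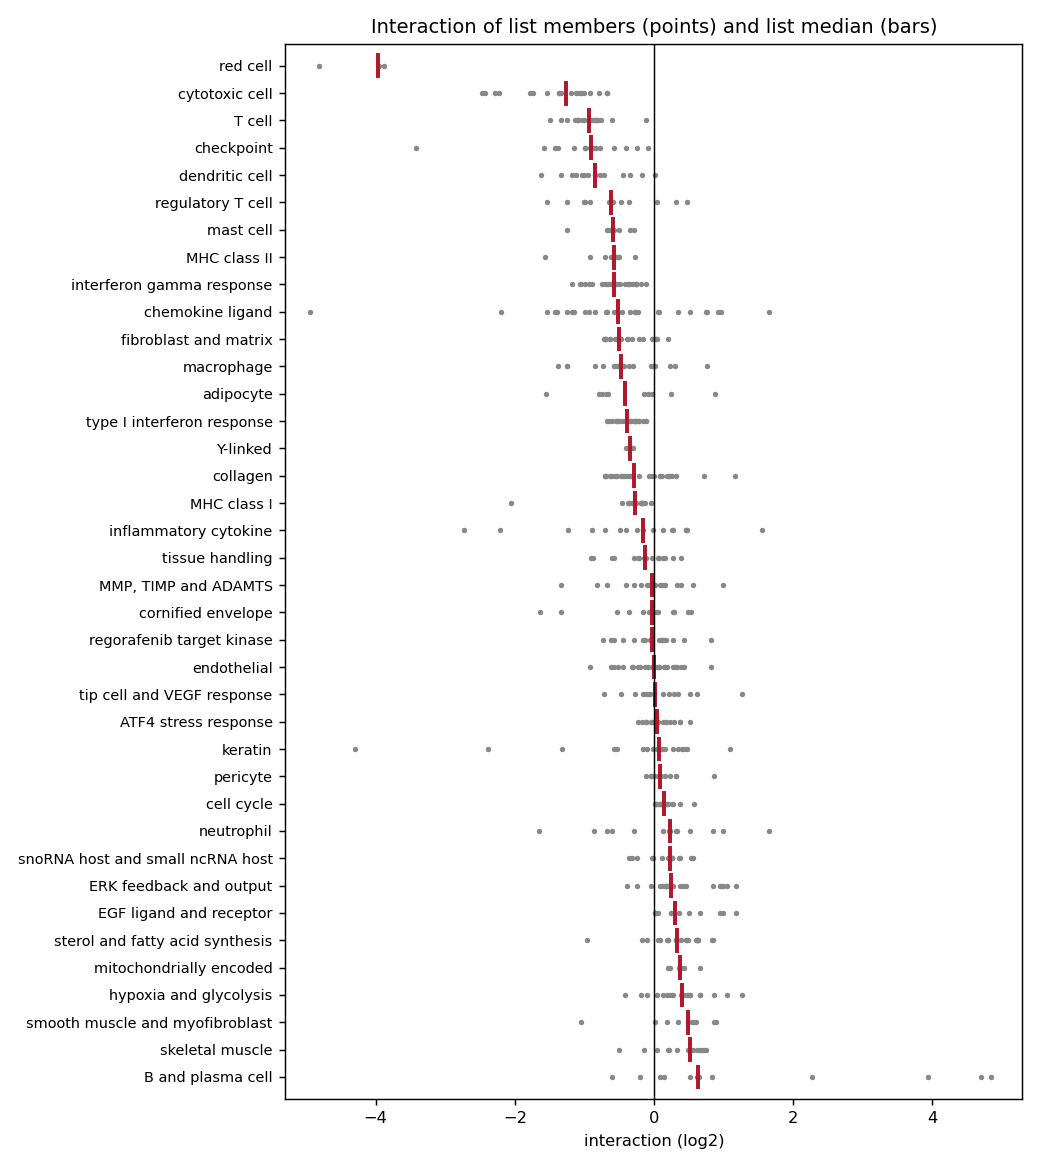
Log2 interaction of every tested member of 38 gene lists (points) with the list median (bars), sorted by median. The red cell, cytotoxic, T cell and checkpoint medians are the lowest, and the B and plasma cell median of 0.63 is the highest. The horizontal axis holds all members.

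Interferon target genes were all negative, with smaller medians than the cytotoxic list. Of the genes induced by type I interferon 25 of 25 were negative, with a median of -0.38, and regorafenib's median effect was 0.41 with anti-PD1 and 0.71 without it. Oas3, a sensor of double-stranded RNA, measured 244.5, 272.9 and 352.7 CPM in combination tumours and 204, 128.6 and 203.1 CPM in anti-PD1 tumours. It measured 367.6, 327.6 and 277.1 CPM in regorafenib tumours and 151.9, 133.7 and 125 CPM in vehicle tumours. Combination libraries were thus all above anti-PD1 libraries and regorafenib libraries all above vehicle, and the interaction was -0.54 with a 95% interval of -1.15 to 0.06. Irf7, a transcription factor that amplifies the response, had -0.64, and the RNA sensor Ifih1 -0.36. The list's median was -0.64 without the third combination library and -0.20 without the first regorafenib library.

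Interferon gamma targets were negative in 26 of 26 with a median of -0.57, or -0.32 without the second regorafenib library, and at least 25 were negative with any library left out. Regorafenib's median effect on them was 0.00 with anti-PD1 and 0.59 without it. Tgtp2, a GTPase of the cell's defence against parasites, had -0.70, the guanylate-binding protein Gbp5 -0.89 and the feedback inhibitor Socs1 -1.04. Every 95% interval of these 3 genes includes 0. Of the 50-base stretches of Tgtp2, 90.6% occur in other genes, so its counts are uncertain.

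Antigen presentation genes had the same sign. MHC class I genes were negative in 19 of 19 with a median of -0.27, and class II genes in 12 of 12 with a median of -0.58 that was -0.15 without the second regorafenib library. H2-M5, a class I-like gene, measured 0.09, 0.21 and 0.25 CPM in combination tumours and 1.23, 2.23 and 3.77 CPM in anti-PD1 tumours. It measured 0.89, 1.01 and 0.37 CPM in regorafenib tumours and 2.22, 2.32 and 2.31 CPM in vehicle tumours. Both pairs were apart with the regorafenib-treated libraries lower, and the interaction was -2.05 (95% interval -3.59 to -0.51). It is the exception in its list, where the next lowest p belonged to H2-Q1 at -0.27. H2-Eb2, a class II chain, had -1.56, H2-DMb2, which loads peptides, -0.92 and the protease Ctss -0.70.

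Chemokine ligands were negative in 20 of 29, with a median of -0.51, which was -0.89 without the third combination library and -0.19 without the first regorafenib or the third anti-PD1 library. Ccl24, a ligand that draws eosinophils, measured 0.13, 0.24 and 0.36 CPM in combination tumours and 1.06, 0.35 and 2.12 CPM in anti-PD1 tumours. It measured 1.94, 0.35 and 0.15 CPM in regorafenib tumours and 0.17, 0.04 and 0.15 CPM in vehicle tumours. All levels were low and the single agents varied widely, and the interaction was -4.94 (95% interval -8.05 to -1.84). Ccl27a, a skin chemokine, had 0.96, but 69.2% of its 50-base stretches occur in other genes and its counts are uncertain. Among inflammatory cytokines 10 of 17 were negative with a median of -0.16, which was 0.25 without the third anti-PD1 library. Il6 had -2.22, while Ptgs2, the prostaglandin enzyme COX2, had 1.55 and Lif, a cytokine of the Il6 family, 0.46. Il6 held only 3 to 34 counts in a library, with 34 in the first regorafenib library, and had -1.15 without that library.

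Vessel genes, which mark the cells that carry the VEGF receptors, were divided evenly. Endothelial genes were positive in 12 of 24 with a median of 0.00, and tip cell and VEGF response genes in 8 of 15 with a median of 0.01. Flt4, the VEGF receptor of lymphatic vessels, measured 7.998, 4.07 and 6.63 CPM in combination tumours and 8.27, 5.87 and 7.94 CPM in anti-PD1 tumours. It measured 3.55, 4.57 and 5.13 CPM in regorafenib tumours and 7.80, 9.63 and 10.3 CPM in vehicle tumours, so regorafenib and vehicle were apart while combination and anti-PD1 overlapped. Its interaction was 0.82 (95% interval 0.03 to 1.62). Kdr, the main VEGF receptor, had -0.44 (-1.67 to 0.79), Pecam1, the pan-endothelial marker CD31, -0.20 (-0.93 to 0.52; 0.01 without the first combination library), Sox17, a factor of arterial cells, -0.91 and Vwf -0.61. Angpt2, the TIE2 ligand made by sprouting vessels, had 0.34, the peptide gene Adm 1.27 and the placental growth factor Pgf 0.62. Each of these has a 95% interval that includes 0, and Adm ran from 0.60 to 2.16 when 1 library was left out. The 17 tested kinases that regorafenib inhibits had 8 positive values and a median of -0.03.

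Mural and matrix genes gave medians of opposite sign with all 12 libraries, but not with every library left out. The pericyte median ran from -0.03 to 0.16 when 1 library was left out, and the fibroblast median also changed sign. Pericyte genes were positive in 8 of 12 with a median of 0.09. Smooth muscle and myofibroblast genes were positive in 10 of 11 with a median of 0.49, or 0.29 without the second vehicle library. Des, a member of both lists, had 0.87, with 36 counts in the first regorafenib library and 636 to 3139 in the others. That library was also the lowest in the skeletal muscle genes described below, and the part of muscle tissue in these lists was not tested. Tpm2, a tropomyosin of contractile cells, had 0.49 (95% interval 0.11 to 0.87) and Acta2, smooth muscle actin, 0.57 (-0.07 to 1.21). Both genes had a lower mean in every treated group than in vehicle tumours. Lmod1, an actin nucleator of smooth muscle, was the exception at -1.05. Fibroblast and matrix genes were negative in 18 of 22 with a median of -0.50, and regorafenib's median effect was -1.09 with anti-PD1 and -0.58 without it.

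The fibroblast value rested on 1 library: the median was 0.15 without the second regorafenib library and 0.19 with the Y-linked covariate. Sparc, a collagen-binding matrix protein, measured 619.9, 752.1 and 1199 CPM in combination tumours and 950.5, 4105 and 3846 CPM in anti-PD1 tumours. It measured 1444, 2809 and 780.3 CPM in regorafenib tumours and 4040, 3114 and 3472 CPM in vehicle tumours. The first anti-PD1 library stood apart from the other 2, and the interaction was -0.71 with a 95% interval of -2.41 to 0.98. Postn, the matrix protein periostin, had -0.37, Fbln2, fibulin 2, 0.20 and the microfibril gene Mfap5 -0.70. Mfap5 had 0.05 without the first regorafenib library and Fbln2 0.02 without the first anti-PD1 library. Collagen genes were negative in 17 of 28 with a median of -0.28 that turned to 0.23 without the same regorafenib library. Their 2 members at an unadjusted p under 0.05 were positive: Col2a1, the cartilage collagen, had 1.17 (95% interval 0.32 to 2.02) and Col18a1, a basement membrane collagen, 0.72 (0.05 to 1.40). Over all genes tested 2.65% were at that level. Matrix proteases and inhibitors had 9 positive of 20 and a median of -0.03, and the macrophage elastase Mmp12 had -1.34.

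Programmes of growth factor signalling had positive medians. All 12 EGF ligand and receptor genes were positive with a median of 0.30, and 8 to 12 were positive when 1 library was left out. That median was 0.11 without the second combination library and 0.53 without the first regorafenib library. ERK feedback and output genes, which are induced when ERK is active, were positive in 17 of 20 with a median of 0.24, which was 0.01 without the second regorafenib library. Hbegf, an EGF receptor ligand and ERK target in both lists, measured 14.3, 15.4 and 13.7 CPM in combination tumours and 4.62, 5.83 and 5.06 CPM in anti-PD1 tumours. It measured 16.2, 4.66 and 9.08 CPM in regorafenib tumours and 5.49, 8.26 and 7.56 CPM in vehicle tumours. Combination and anti-PD1 were apart by a wide margin while regorafenib spanned the vehicle range, and the interaction was 0.99 (95% interval -0.10 to 2.09). Nrg1, a ligand of ERBB3 and ERBB4, had 0.66, Areg 1.19 and Ereg 0.95. Without the second combination library Areg had 0.02 and Ereg -0.03. Ier3, an immediate early gene, had 1.05, Spred3, a RAS inhibitor, 0.46 and the ERK phosphatase Dusp5 -0.38.

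Hypoxia and glycolysis genes were positive in 17 of 20 with a median of 0.41, and 13 to 17 were positive when 1 library was left out. The median was 0.09 without the first combination library. Vegfa, the main vessel growth factor, measured 234.4, 145.9 and 112 CPM in combination tumours and 86.9, 68.3 and 58.1 CPM in anti-PD1 tumours. It measured 136.8, 89.6 and 175.8 CPM in regorafenib tumours and 89.1, 126.2 and 61.3 CPM in vehicle tumours. Combination was above anti-PD1 in all libraries while regorafenib overlapped with vehicle, and the interaction was 0.67 (95% interval -0.39 to 1.73). Ero1l, an oxidase of protein folding, had 1.05, the glucose transporter Slc2a1 0.87 and hexokinase 2, Hk2, 0.49.

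Genes of sterol and fatty acid synthesis were positive in 22 of 25 with a median of 0.33, and 20 to 23 were positive when 1 library was left out. The median was 0.20 without the second and 0.55 without the first regorafenib library. Here each treated group lay mostly below vehicle, and the positive sign means that the combination was less far below than the single agents predict. Regorafenib's median effect was -0.14 with anti-PD1 and -0.44 without it. Scd2, a fatty acid desaturase, measured 96.6, 92.6 and 110 CPM in combination tumours and 89.0, 127.2 and 122.4 CPM in anti-PD1 tumours. It measured 93.9, 106.4 and 83.1 CPM in regorafenib tumours and 148.9, 193.1 and 147.1 CPM in vehicle tumours, so vehicle was above every treated library. Its interaction was 0.61 (95% interval 0.12 to 1.10). Srebf1, the transcription factor SREBP1 of fatty acid synthesis, had 0.32, Mvk, mevalonate kinase, 0.46 and Sc5d, a late enzyme of cholesterol synthesis, 0.33. These 4 of 25, named for the smallest p of the list, were at an unadjusted p under 0.05. Over all genes tested 1.53% were positive at that level.

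Cell cycle genes were positive in 24 of 24, but by little. Their median was 0.14, and without the second regorafenib library it was -0.09, with 4 of 24 positive. E2f1, a transcription factor of entry into S phase, had 0.58, the cyclins Ccne2 and Ccnb2 0.28 and 0.26 and the mitotic factor Foxm1 0.37, each with a 95% interval that includes 0. Ccnb2 had -0.05 without the second regorafenib library. Genes of the mitochondrial genome were positive in all 7 tested of 13 listed, with any library left out as well, and had a median of 0.37. mt-Cytb, a subunit of respiratory complex III, measured 1931, 2808 and 2498 CPM in combination tumours and 1708, 1949 and 1962 CPM in anti-PD1 tumours. It measured 2176, 2237 and 2190 CPM in regorafenib tumours and 2158, 2332 and 2462 CPM in vehicle tumours. The first combination library lay inside the anti-PD1 range, and the interaction was 0.44 (95% interval 0.01 to 0.87). mt-Nd1, of complex I, had 0.39, mt-Nd5 0.35 and mt-Nd2 0.37.

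Host genes of small nucleolar RNAs were positive in 9 of 14 with a median of 0.23, or 0.10 without the first regorafenib library. Of these 14, 3 were at an unadjusted p under 0.05, against 2.65% of all genes tested. Snhg20 measured 34.4, 37.4 and 26.5 CPM in combination tumours and 20.0, 13.8 and 15.7 CPM in anti-PD1 tumours. It measured 22.7, 27.2 and 28.6 CPM in regorafenib tumours and 19.0, 19.9 and 19.4 CPM in vehicle tumours. Both regorafenib-treated groups were above their partners in all libraries, and the interaction was 0.57 (95% interval 0.07 to 1.06). Snhg5 had 0.26 and Snhg3 0.53, though other genes share 86.3% of the exonic bases of Snhg3 and make its counts uncertain. Stress genes of the ATF4 pathway were positive in 11 of 20 with a median of 0.04, keratins in 10 of 18 with a median of 0.08, and cornified envelope genes in 6 of 13 with a median of -0.03. Krt10, a keratin of differentiating skin, had -4.29, and -0.13 without the second regorafenib library, the only library above 1 CPM at 27.1 CPM.

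Markers of other tissues differed between libraries as well. The red cell list, in which 3 of 8 genes were tested, had a median of -3.96, and its summed level was 1.67 to 4.80 CPM in combination, 1.65 to 56.0 in anti-PD1, 1.76 to 32.9 in regorafenib and 3.39 to 10.8 in vehicle libraries. Hbb-bs, beta globin, which shares 65.8% of its 50-base stretches with other genes, was highest in the first anti-PD1 library at 30.7 CPM and the third regorafenib library at 16.9 CPM, and the list's median was -2.10 without that anti-PD1 library. Skeletal muscle genes, from tissue that can surround the graft, were positive in 13 of 15 with a median of 0.52, but all 15 were negative without the third combination library. Their summed level was 13.2 CPM in the lowest regorafenib library and 148.6 to 631 CPM in all libraries of the other 3 groups. Adipocyte genes were negative in 8 of 10 with a median of -0.41, which was -1.46 without the third vehicle library and 0.01 without the first combination library. The 4 Y-linked genes, carried by host cells of these male mice, were all negative with a median of -0.34, genes of tissue handling had 6 of 16 positive with a median of -0.13, and the part of these markers in the gene values above was not tested beyond the Y-linked covariate.

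The remaining positive genes of smallest p were moderate in size. Ltb4r1, a receptor for the leukocyte attractant leukotriene B4, measured 14.4, 15.5 and 14.6 CPM in combination tumours and 7.81, 7.22 and 8.55 CPM in anti-PD1 tumours. It measured 13.0, 12.4 and 13.5 CPM in regorafenib tumours and 9.48, 10.1 and 10.5 CPM in vehicle tumours. The groups did not overlap in either pair, with the lowest levels under anti-PD1 alone, and the interaction was 0.55 (95% interval 0.22 to 0.88). Rnf208, a RING-type ubiquitin ligase gene, had 0.83, Trub1, a pseudouridine synthase, 0.47, Ankk1, a kinase gene, 0.48 and Srsf11, a splicing factor, 0.38. Fastk had 0.40, Filip1l 0.32 and the transcription factor Deaf1 0.31. Exons of Fastk overlap other genes over 26.1% of their bases, mostly on the opposite strand, and how the counting used strand is not given in the sources used here.

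Among the negative genes Rnase1, a secreted ribonuclease made by endothelial cells, had the smallest p. It measured 2.34, 2.65 and 2.32 CPM in combination tumours and 6.07, 2.76 and 5.93 CPM in anti-PD1 tumours. It measured 2.71, 4.18 and 5.65 CPM in regorafenib tumours and 2.31, 1.48 and 0.81 CPM in vehicle tumours. Every single-agent library was above every vehicle and combination library, and against an expected 13.4 CPM the interaction was -2.46 (95% interval -3.75 to -1.17, unadjusted p 0.00152, adjusted p 1, edgeR). Fkbp5, a co-chaperone induced by glucocorticoid hormone, measured 43.5, 27.5 and 43.9 CPM in combination tumours and 37.9, 44.0 and 62.0 CPM in anti-PD1 tumours. It measured 42.2, 59.5 and 47.0 CPM in regorafenib tumours and 27.2, 28.6 and 30.5 CPM in vehicle tumours. All single-agent libraries were above all vehicle libraries, the second combination library was inside the vehicle range, and the interaction was -1.11 (95% interval -1.79 to -0.43).

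The other negative genes of smallest p lay between -1.19 and -0.29. Rnf125, a ubiquitin ligase, had -1.15, Mcf2l and Kalrn, exchange factors for small GTPases, -1.19 and -0.69, P2ry1, an ADP receptor, -0.57 and Fbxo33, an F-box protein, -0.56. Dop1b had -0.52 and Clint1, an adaptor of clathrin transport, -0.29. The histone gene Hist1h2bc had -0.82, but 30.1% of its 50-base stretches occur in other histone genes, so its counts are uncertain. Exons of P2ry1 overlap an opposite-strand gene over 23.1% of their bases. Of the 449 genes at that unadjusted level, 104 carry predicted or clone names, 68 of the positive and 36 of the negative ones.

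Regorafenib's average effect over both backgrounds passed the test in many genes, and the size of its effect on them can be set side by side in each background. In the average of both regorafenib contrasts 1610 of 16974 genes (9.49%) passed an adjusted p of 0.05 by edgeR, 1046 higher and 564 lower under regorafenib. The matching average anti-PD1 effect called 0 genes (0%) by edgeR and 11 by DESeq2. All 1610 genes had the same sign in both backgrounds, which their choice on the average regorafenib effect favours in advance. The average and the interaction use the same libraries, and the genes were chosen on the average, so what follows describes them and is not independent support. The 1046 higher genes had a median log2 effect of 0.63 with anti-PD1 and 0.45 without it, and the 564 lower genes -0.38 and -0.35.

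The higher genes leaned to a larger effect in the presence of anti-PD1. Of 1046 genes 781 had a positive interaction, with a median of 0.18, and the number positive stayed between 683 and 807 when 1 library was left out. Of the 564 lower genes 308 had a larger fall with anti-PD1, with a median of -0.02 that ranged from -0.07 to 0.02 when 1 library was left out. Over both directions 67.6% were larger with anti-PD1, against 53.8% of the genes not called. At an unadjusted p under 0.05 there were 128 interactions among the 1610, or 7.95%, against 2.65% of all genes tested, and of these 111 were larger with anti-PD1. For 1089 of the 1610 the 95% interval lay within a 2-fold departure in either direction.

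Mest, an imprinted gene of growing tissue, measured 1.64, 2.12 and 1.81 CPM in combination tumours and 6.92, 12.7 and 7.94 CPM in anti-PD1 tumours. It measured 3.00, 2.37 and 1.92 CPM in regorafenib tumours and 13.8, 14.0 and 12.4 CPM in vehicle tumours. It fell under regorafenib in both backgrounds without overlap, by 2.30 and 2.46 log2 units, and the interaction was 0.16 with a 95% interval of -0.61 to 0.93, or -0.01 without the first anti-PD1 library. Idh1, the cytosolic isocitrate dehydrogenase, had 0.08 (-0.37 to 0.53), which leaves out a 2-fold departure. The endothelial protocadherin gene Pcdh12 had -0.52 (-1.32 to 0.27), the transferrin receptor gene Tfr2 0.49 (-0.38 to 1.37) and Col8a2, a collagen chain, 0.22 (-1.29 to 1.73). Idh1 had -0.07 without the first anti-PD1 library and Col8a2 -0.47 without the second combination library. Nell2, a secreted growth factor-like protein, had -1.50 (-4.40 to 1.40), with 2 combination libraries at 0.

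Snhg17, the higher gene of smallest p in the average, measured 98.5, 98.2 and 79.3 CPM in combination tumours and 49.0, 40.7 and 44.2 CPM in anti-PD1 tumours. It measured 66.7, 73.1 and 77.8 CPM in regorafenib tumours and 43.5, 46.2 and 47.6 CPM in vehicle tumours. It rose in both backgrounds without overlap, and the interaction was 0.38 (95% interval 0.05 to 0.70). Oas1b, an interferon-induced gene of antiviral defence, had -0.12 (-0.53 to 0.29), and Chka, choline kinase, 0.12 (-0.16 to 0.41), both within a 2-fold departure. Aoc2, an amine oxidase, had 0.32 and the cartilage collagen Col11a2 0.31. Catsper4, a subunit of a sperm calcium channel at under 1.3 CPM in every library, had -1.01 (-2.41 to 0.38).

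**Figure D5:**
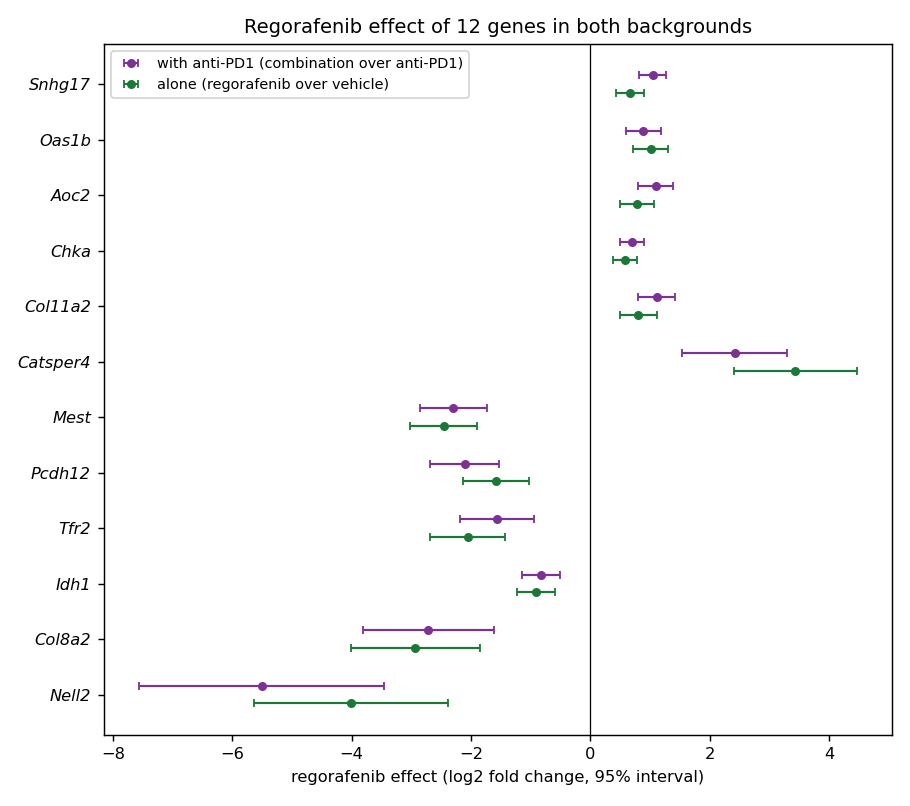
Log2 fold change of regorafenib with its 95% interval for 12 genes, with anti-PD1 (combination over anti-PD1) above and alone (regorafenib over vehicle) below in each row. The 6 genes from Snhg17 to Catsper4 are higher and the 6 from Mest to Nell2 lower under regorafenib, and the intervals of the pair overlap in every row.

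The scale of additivity changed few signs. As a difference of differences of mean CPM, 8720 of 16974 genes were positive, against 8329 on the log2 scale. The sign differed in 717 genes, or 4.22%, and in 0 of the 449 genes at an unadjusted p under 0.05.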

How the data were processed

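RNA from 12 tumour samples was analysed, 3 in each of 4 groups, grouped by the treatment in the labels. The authors deposited a table of raw read counts per Ensembl gene. Per the submitters' processing notes cutadapt 2.4, STAR 2.7.2a and the mouse build GRCm38 were used; how reads were counted, with which annotation and by strand or not, is not given in the sources used here. GENCODE M21 supplied symbols and coordinates, with 55227 of 55487 identifiers matched without their version.

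Genes were kept with filterByExpr (minimum count 10, minimum total 15), which left 16974 holding 99.91% to 99.94% of the counts of each library. Totals were 22591835 to 28209036 counts, and their precision is seen in the standard errors. edgeR 4.0.16 (R 4.3.3) fitted 4 group means with TMM factors and robust quasi-likelihood, with 8 residual degrees of freedom. Interaction and average effects were tested two-sided by F test with Benjamini-Hochberg adjustment over all genes tested, at 0.05. The standard error is the log2 value over the root of F, and intervals use its degrees of freedom. Alternatives were DESeq2 1.42.0, limma 3.58.1 voom with quality weights, RLE factors, other filters, protein-coding genes only, a Y-linked covariate, a replicate block, each library left out, and linear additivity. The fit was also run on simulated counts, with changes added to the combination group only. Genes were simulated independently, so shifts of whole cell types between libraries were not covered.

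Named genes were the 10 positive and 10 negative of smallest interaction p with a mean of at least 1 CPM, the 6 higher and 6 lower of smallest p in the average regorafenib effect, up to 4 members of smallest p in each of 38 lists, and 15 readout genes. Other genes named, the further carboxylesterases, squamous markers, Igha and Ptprc, were chosen after values were seen. Members and lists were chosen with earlier results of these data known. Some genes that this rule selects are not reported here.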

Additional observations from a re-analysis of the deposited data

How the results depend on the processing

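The interaction called 0 genes under every alternative tried, including DESeq2, limma voom, other filters and scaling, and each of the 12 libraries left out, and the count at an unadjusted p under 0.05 ran from 269 to 878. The average regorafenib effect, with 1610 genes, had 959 with no filter on low counts, 2808 by DESeq2 and 460 to 2048 when 1 library was left out, and the average anti-PD1 effect had 11 by DESeq2; the cause was not tested. After group means were taken out, same-numbered samples correlated between -0.66 and 0.63, over 0.1 in 2 of 18 pairs. No steady likeness by number was seen, but these values cannot tell if same-numbered samples shared a batch. With the replicate block the interaction called 0 and the average regorafenib effect 504, and 2 of 12 samples correlated best with their own number. Under alternatives that keep all libraries, no named gene changed sign with a shift larger than its standard error. Shifts of named genes without a change of sign were not counted. List medians were compared with the spread of the list between libraries of a group, and 4 values moved past it. These were the fibroblast (0.19), collagen (0.22) and matrix protease (0.33) medians with the Y-linked covariate, and the red cell median by voom (-1.16). Leaving out 1 library changed the sign of the interaction of 23 of the 185 genes chosen by the naming rule, and moved 126 by over 1.5 times or in sign, so single values rest on few libraries. The 3 samples a group and a median standard error of 0.22 limit what can be called.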
